A study of Drosophila melanogaster with 2 samples.

Results

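A set of 9 long Drosophila melanogaster genes was described here as places where a tagged CG12769 protein was found many times along 1 gene. The 9 genes, sbb, bun, tara, rdx, siz, Glut4EF, klar, Svil and CG1677, are 9 of 13945 protein-coding genes on the 6 chromosome arms used, and they were chosen by their high counts of peak summits in the same data. The counts are therefore given as descriptions, with no test. Chromatin came from whole embryos 10 to 24 h old, of both sexes mixed, from a transgenic line that carries CG12769 with green fluorescent protein (GFP) at its C-terminus. DNA held by the fusion protein was pulled down with an antibody to GFP and sequenced (ChIP-seq). There was 1 group, with biological replicates 5 and 7, and no other genotype, treatment or age. No control library was analysed here, and a whole-embryo signal does not show which cells it came from. Whether the transgene is expressed as the native gene is, and what CG12769 does, is not stated in the labels. The authors deposited 4 peak lists. Replicates 5 and 7 had one each, and another came from both pooled. The last held the 8574 peaks kept after an irreproducible discovery rate (IDR) filter. Such a filter favours peaks ranked alike in the lists it compares, and which lists were compared is not stated. No read counts were given, so the depth behind a peak is unknown.

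Long fly genes often have several promoters, each with its own first exon, and long introns between the first exons and the shared coding exons. Such introns commonly hold enhancers, smaller genes nested inside the larger one, and promoters of alternative transcripts. A ChIP-seq peak marks DNA recovered with the tagged protein, and its summit is the position its list gives as the highest point. A peak does not by itself show that the protein touches that DNA or regulates the gene around it. Among the 9 genes, sbb (scribbler) encodes a transcriptional corepressor, bun (bunched) a protein of the TSC22 leucine zipper family, and tara (taranis) a nuclear protein linked to trithorax group genes. The gene rdx (roadkill) encodes a BTB protein that brings the Hedgehog pathway factor Ci to a ubiquitin ligase. The product of siz (schizo) is an exchange factor for Arf GTPases, klar (klarsicht) encodes a protein of the nuclear envelope that acts in nuclear positioning and lipid droplet transport, and Svil encodes a relative of supervillin, an actin-binding protein. Glut4EF is named for its likeness to the mammalian GLUT4 enhancer factor.

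The DNA under the strongest IDR summit of 8 of the 9 genes is printed in full, since these are the places with the highest value in each gene and their sequences differ plainly. Each reaches 60 bp to either side of the summit, plus strand, 5′ to 3′, from the RefSeq Release 6 genome, whose sequence is that of dm6. None overlaps an exon of the gene. The window of sbb is not shown and is not part of the comparison of these 8. Capitals mark GAGAG (or CTCTC on the other strand), the motif of GAGA factor, and CACACAC (or GTGTGTG on the other strand), a CA repeat.
tara, 3R:16237109-16237229: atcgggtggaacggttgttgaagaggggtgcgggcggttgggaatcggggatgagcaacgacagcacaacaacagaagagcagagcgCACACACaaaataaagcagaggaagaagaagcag
CG1677, X:7337028-7337148: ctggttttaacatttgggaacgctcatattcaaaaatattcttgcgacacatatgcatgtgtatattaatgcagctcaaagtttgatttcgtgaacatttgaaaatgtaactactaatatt
rdx, 3R:13983590-13983710: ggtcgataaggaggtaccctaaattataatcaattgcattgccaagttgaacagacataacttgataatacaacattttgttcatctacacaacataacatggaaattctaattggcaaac
Glut4EF, 3R:9932558-9932678: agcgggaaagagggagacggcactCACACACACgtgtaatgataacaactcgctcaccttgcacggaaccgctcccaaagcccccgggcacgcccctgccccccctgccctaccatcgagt
bun, 2L:12483883-12484003: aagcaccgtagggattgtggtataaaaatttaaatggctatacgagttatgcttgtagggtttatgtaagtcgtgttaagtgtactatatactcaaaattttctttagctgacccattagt
Svil, 3L:2494257-2494377: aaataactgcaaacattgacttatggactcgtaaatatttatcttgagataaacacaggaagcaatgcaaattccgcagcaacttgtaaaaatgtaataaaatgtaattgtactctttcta
siz, 3L:21049582-21049702: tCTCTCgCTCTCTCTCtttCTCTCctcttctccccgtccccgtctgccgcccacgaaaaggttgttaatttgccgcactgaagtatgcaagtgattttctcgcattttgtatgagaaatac
klar, 3L:455242-455362: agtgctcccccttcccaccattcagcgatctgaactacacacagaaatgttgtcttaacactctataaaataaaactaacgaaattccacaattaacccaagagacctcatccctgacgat
The siz window holds 5 matches of CTCTC at its start, some of them overlapping. The tara window holds 1 CACACAC in 53.7% GC, and the Glut4EF window holds 2 overlapping matches in 62.8% GC. The other 5 windows held neither motif. Those of Svil, CG1677, rdx and bun were rich in A and T, with 29.8%, 30.6%, 33.1% and 33.9% GC, and that of klar had 41.3%. By rank in the IDR set, the summits whose windows held a motif were those of tara (51), Glut4EF (450) and siz (864). Those with neither motif were CG1677 (161), rdx (233), bun (559), Svil (643) and klar (1358). Whether motif and rank go together was not tested.

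Together the 9 genes held 178 of the 8574 IDR summits, or 2.08%, on 0.587% of the bases of the arms. That is 0.227 summits per kb of gene against 0.0642 per kb over the arms, 3.54 times as many. The median protein-coding gene held 0, and 11462 genes, or 82.2%, had no summit inside. The lowest count among the 9 was 15, in klar and Svil. Of all 13945 protein-coding genes 26 held 15 or more, or 0.186%, and of the 501 genes between the shortest and longest of the 9 in length, 23 did, or 4.59%. Both shares rest on the count that chose the genes and carry no further meaning. The list is not a complete set of such genes: 17 others reached 15, of which 7 held exactly 15, and 7 more held 14.

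Density differed more than count, with tara and siz, the shortest genes, at the top and Svil at the bottom. The genes were picked for high counts and not by length, so this order follows in part from dividing such counts by length. In tara (3R:16225651-16260329, plus strand, dm6, as all positions here) 18 summits lay in 34.7 kb, or 0.519 per kb. In siz (3L:21034535-21075444, plus strand) there were 18 in 40.9 kb, or 0.440 per kb. The gene with the most summits, sbb (2R:18278198-18357296, minus strand), held 27 in 79.1 kb, or 0.341 per kb. In rdx (3R:13967061-14032057, minus strand) 20 lay in 65.0 kb, or 0.308 per kb, and in bun (2L:12455540-12546611, minus strand) 23 lay in 91.1 kb, or 0.253 per kb. The 4 longest genes were sparser. CG1677 (X:7281089-7405797, minus strand) held 23 in 124.7 kb, or 0.184 per kb, and Glut4EF (3R:9874681-9995364, plus strand) 19 in 120.7 kb, or 0.157 per kb. In klar (3L:434083-540614, minus strand) 15 lay in 106.5 kb, or 0.141 per kb, and in Svil (3L:2377655-2499226, plus strand) 15 lay in 121.6 kb, or 0.123 per kb.

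The replicates counted much the same number of summits in each gene. In their full lists of 30000 peaks, replicate 5 had 557 summits in the 9 genes and replicate 7 had 562, and the pooled list had 573. The gene counts in replicate 5 and replicate 7 were 66 and 60 in sbb, 92 and 92 in bun, and 40 and 36 in tara. They were 58 and 61 in rdx, 31 and 36 in siz, and 83 and 78 in Glut4EF. In klar they were 73 and 67, in Svil 67 and 83, and in CG1677 47 and 49. Svil had the widest gap between replicates. The genes differed in how many of their pooled summits were in the IDR set: 51.4% of pooled summits in siz, 47.4% in tara, 46.0% in CG1677 and 42.9% in sbb, against 15 of 75 in Svil and 19.7% in klar. Over all 9 genes the share was 31.1%, and over the whole pooled list 28.6%. In the whole pooled list bun and Glut4EF, with 89 each, held more summits than sbb, with 63.

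**Figure D1:**
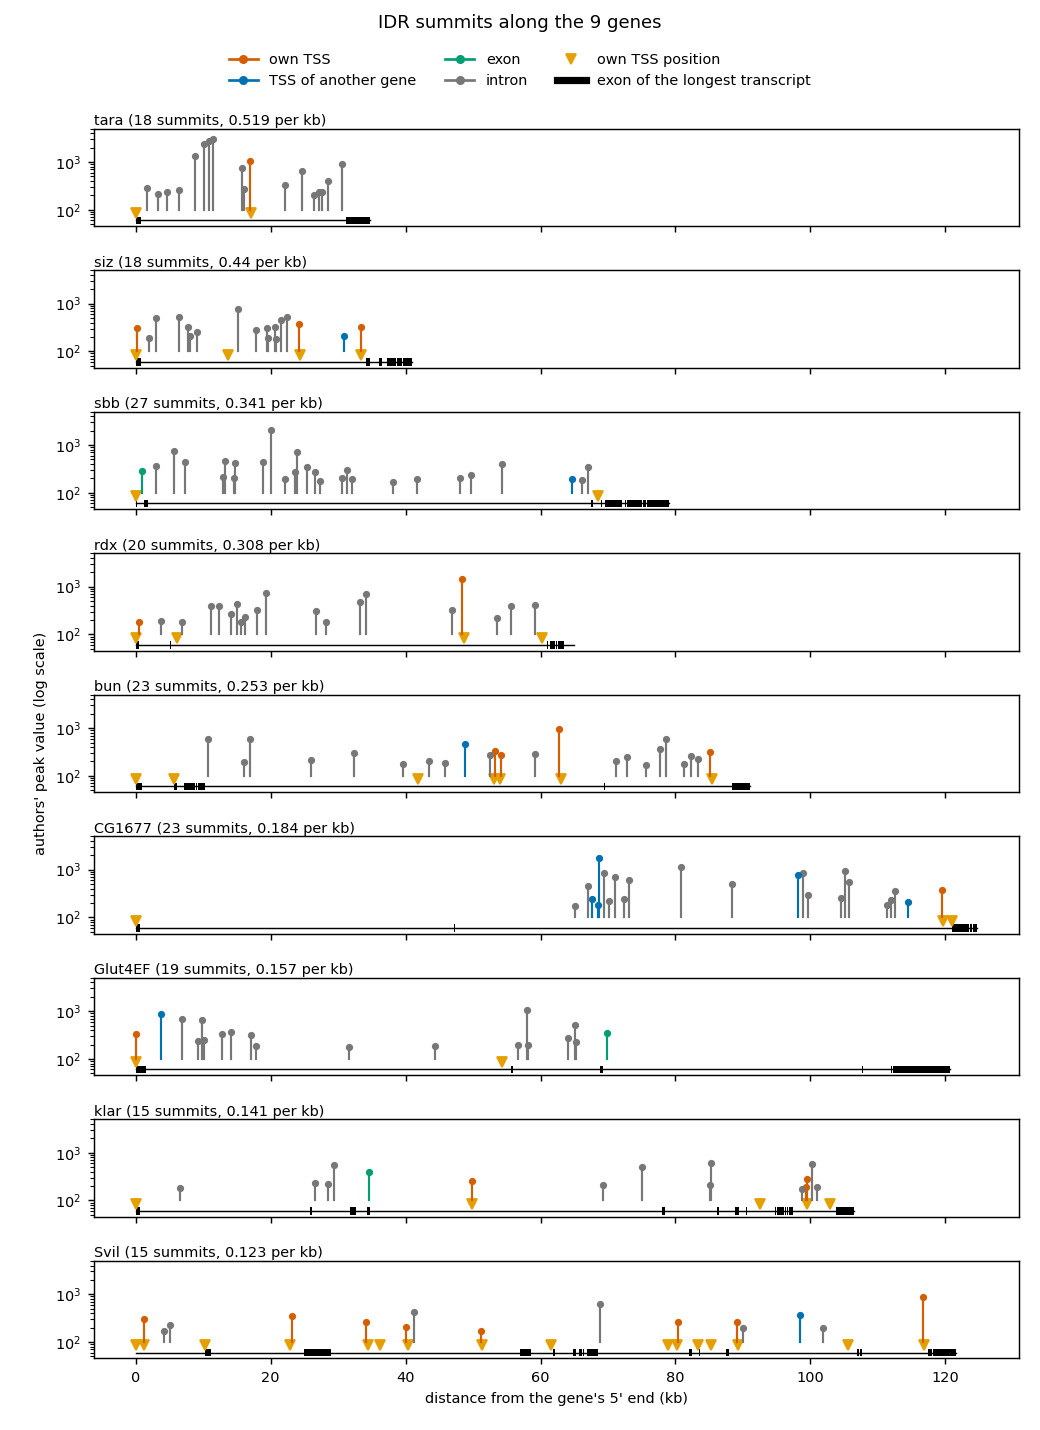
Each panel is 1 gene, drawn from its 5′ end (left, distance in kb) and ordered by summits per kb. Stems are IDR summits, with the authors' peak value on a log scale and colour for placement, triangles mark the gene's own transcription start sites and black boxes the exons of its longest transcript. Summits of tara, siz, sbb and rdx run along 1 long intron, those of CG1677 begin 65.1 kb from its 5′ end, and those of Svil sit mostly at its start sites.

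Most of the 178 summits lay in introns, and they did so about as often as the genes' bases do. Each summit was given to the first class that applied: no more than 500 bp from a transcription start site (TSS) of the gene itself, within 500 bp of a TSS of another gene, in an exon of the gene, or in an intron. Introns away from any TSS held 142 summits, or 79.8% (95% exact interval 73.1 to 85.4), against 79.2% of the bases, a ratio of 1.01. Own promoters held 23, or 12.9% (8.37 to 18.8), against 5.15% of the bases, a ratio of 2.51. Promoters of other genes held 10, or 5.62% (2.73 to 10.1), against 5.74%. Exons away from any TSS held 3, or 1.69% (0.349 to 4.85), against 9.94%, a ratio of 0.170. Only 1 summit, in klar at 3L:506105 with a value of 387.7, lay in coding sequence. The intervals cover counting error only, and summits of 1 gene are not independent places.

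In all, 33 summits, or 18.5% (13.1 to 25.04), lay within 500 bp of any TSS, against 40.7% of the 8396 IDR summits outside these genes. The density of TSSs differs between long and short genes, and its part in this difference was not tested. The median distance of a summit to the nearest TSS of its own gene was 7119.5 bp, and 105 of the 178 lay more than 5 kb away. Of the 23 summits at own promoters 14 lay upstream of the TSS and 9 downstream. These counts leave out 4 summits upstream of TSS 1 of sbb, bun, klar and Svil, which lie outside the gene. The authors' values had a median of 306.4 at own promoters, 307.9 at promoters of other genes, 282.3 in introns and 356.3 over the 3 in exons. Summits followed each other at a median of 1832 bp within a gene. Of 169 neighbouring pairs, 13 were less than 250 bp apart. In several of these pairs both summits overlapped the same peak of a replicate, so close pairs need not be separate places. One was 3R:16241448 and 3R:16241649 in tara, in replicate 5, and others were in siz, sbb and klar.

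**Figure D2:**
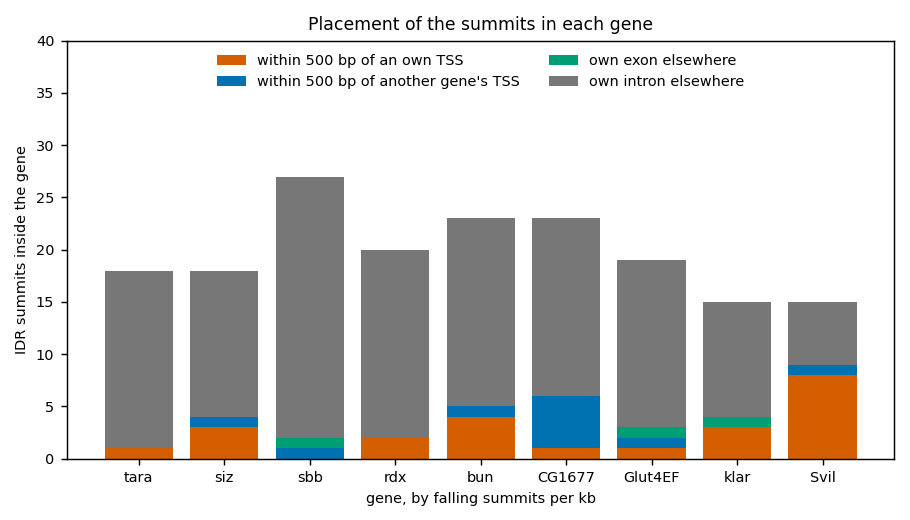
Bars give the number of IDR summits in each gene, stacked by placement, with genes in order of falling summits per kb. Introns hold most summits in each gene but Svil, where 8 of 15 lie within 500 bp of an own start site. CG1677 holds 5 of the 10 at start sites of other genes.

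A single long intron carried 90% or more of the summits in 5 genes. In tara, intron 1 of the longest transcript (30.3 kb, 87.5% of the gene) held all 18. Intron 1 of siz (33.4 kb) held 17 of 18, and intron 2 of rdx (55.8 kb) held 18 of 20. In sbb, intron 2 (65.6 kb, 83.0% of the gene) held 26 of 27, and in CG1677, intron 2 (73.9 kb) held all 23. In bun 2 introns shared the summits, intron 5 (59.1 kb) with 14 and the shorter intron 6 (18.9 kb) with 9, at 0.237 and 0.476 per kb. In Glut4EF, intron 1 (54.1 kb) held 11 and intron 2 (12.9 kb) held 6, while intron 4 (38.4 kb) held 1. In klar and Svil they were spread over 5 introns each. The short intron 15 of klar (6.37 kb) held 5, at 0.785 per kb, whereas its intron 5 (43.3 kb) held 3, at 0.0692 per kb. First introns of the longest transcripts held 51 of the 178 summits, or 28.7%, on 27.3% of the bases.

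In some of the genes more summits lay toward 1 end. In sbb 20 of 27 lay nearer to the 5′ end of the gene than to its 3′ end, as did 13 of 20 in rdx and 15 of 19 in Glut4EF. In bun 16 of 23 lay nearer to the 3′ end, as did all 23 in CG1677. The rest were nearer to even, with 11 of 18 nearer to the 5′ end in tara and in siz, 8 of 15 in Svil and 6 of 15 in klar. Evenness of spread was not tested. The longest stretch without a summit was 65.1 kb in CG1677, 52.2% of the gene, and 50.8 kb in Glut4EF, 42.1% of the gene, both at 1 end. In the other 7 genes it took 11.8% to 19.8% of the gene.

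Alternative promoters were marked unevenly. The 9 genes have 45 distinct TSS positions, of which 26 had an IDR summit within 500 bp, and each of the 9 genes had at least 1 such TSS. That compares with 21.3% of all protein-coding genes and 49.5% of the 501 genes in the same range of length. A gene picked for many summits had more chances of one near a TSS, so the 9 of 9 is no finding of its own. Numbering TSSs from the 5′ end of the gene, sbb had a summit 141 bp upstream of TSS 1, just outside the gene, with a value of 1814.11 and rank 144 of 8574, and none within 500 bp of TSS 2. In tara the order was the other way: the nearest summit to TSS 1 was 910 bp away, and TSS 2, inside intron 1, had one 199 bp upstream, with a value of 1055.11 and rank 471. In rdx the strongest summit of the gene, with a value of 1461.79 and rank 233, lay 287 bp upstream of TSS 3, and that near TSS 1 was weak, at 182.9 and rank 7858.

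Of the 7 TSSs of bun 5 had a summit. The strongest, 354 bp upstream of TSS 6, had a value of 965.1, against 245.5 at TSS 1, where the summit lay 71 bp outside the gene. In siz, TSSs 1, 3 and 4 had summits of 306.4, 366.0 and 326.8, those of TSSs 3 and 4 both 21 bp upstream, and TSS 2 had none. Of the 5 TSSs of klar, 3 had a summit: TSS 1 with 525.0, 171 bp upstream, TSS 2 with 252.8 and TSS 4 with 287.6. Glut4EF had one 8 bp from TSS 1, with 329.9, and none within 500 bp of TSS 2. Svil has 16 TSSs, and 9 of them had a summit, led by TSS 16 with 886.3, 221 bp upstream, followed by TSS 4 with 348.6. Inside Svil, own promoters held 53.3% of the summits on 12.8% of the bases. Without Svil the share at own promoters over the other 8 genes was 9.20%, against 12.9% with it.

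CG1677 went against the description of a gene with dense intronic peaks. All 23 of its summits lay upstream of 2 of its 3 TSSs, those used by 3 of its 4 transcripts, and 1 of them lay within 500 bp of such a TSS. They count as intronic only through 1 long transcript, FBtr0303415, which starts at the far TSS 65.1 kb from the first summit, and without that transcript the gene held 0 summits and the other 8 genes held 155. The gene overlaps 13 other protein-coding genes and a long noncoding RNA gene, lncRNA:CR44357, that covers every one of the 23. Summits lay 10 bp from a TSS of unc-119, 131 bp from that of CG2059 and 347 bp from that of brk, which encodes a repressor of Dpp target genes, and this last had a value of 760.0. The 3 summits at CBP lay 264, 62 and 426 bp from its TSS, and the first of them, with 1759.67, was the strongest of the gene. A summit with 1126.32, rank 396, lay inside Dok, 807 bp from its TSS, and one with 499.4 inside the autophagy gene Atg5. Which gene, if any, these peaks belong to was not tested.

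Overlap with other genes touched 3 more of the 9. All 19 summits of Glut4EF also lay inside CG46467 (3R:9874681-9988876), which starts at the same base, so which of the genes they belong to cannot be told apart. One of them, with a value of 852.9, lay 98 bp from the TSS of lncRNA:CR45029. In sbb 4 of 27 lay inside CG14502 or CG14505, 1 of them 316 bp from a TSS of CG14502, and in rdx 1 of 20 lay inside asRNA:CR43460. Over all 9 genes, 47 of 178, or 26.4%, lay inside another gene. In bun 1 summit lay 480 bp from the TSS of t-cup, in siz 1 lay 463 bp from that of CG43072 and 1 lay 492 bp from that of CG10581, and in Svil 1 lay 444 bp from that of CG16762. None of the summits of bun, tara, siz, klar and Svil lay inside another gene.

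The strongest summits of the 9 genes stood together in tara. Its intron 1 held 4 neighbouring summits: 3R:16237169 with a value of 2989.88 and rank 51 of 8574, 3R:16236564 with 2783.56 and rank 59, 3R:16235754 with 2441.72 and rank 73, and 3R:16234506 with 1310.42 and rank 305. The first 3 were the only summits of the 9 genes among the 100 strongest. They ranked 42, 31 and 88 in replicate 5 and 55, 165 and 64 in replicate 7. Both replicates thus placed this stretch of tara high, and they differed most on the second. The summits ranked 51 and 59 of 8574 shared the same peak interval, so they need not be separate places.

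The leading summits of the other genes ranked lower. In sbb 2R:18337183, in intron 2, had a value of 2037.28 and rank 112, and ranked 130 and 120 in replicates 5 and 7. That of CG1677 ranked 161, with 341 and 116 in the replicates, and that of rdx 233, with 266 and 227. In Glut4EF 3R:9932618, in intron 2, had 1079.63 and rank 450, with 291 and 729 in the replicates. The leading summit of bun ranked 559 and that of Svil 643, both at own promoters. In siz 3L:21049642, with 755.0, ranked 864, and in klar 3L:455302, with 595.8, ranked 1358. Those of klar and CG1677 shared their peak interval with a weaker summit, and that of Glut4EF had another less than 250 bp away. Many summits therefore did not go with strong ones: the median value of the 178 was 290.5, against 288.9 for the 8396 others, and 48 of the 178, or 27.0%, were in the strongest 1 in 4 of the IDR set. Of these 48, tara held 8 and CG1677 held 11, whereas Svil held 2.

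Nearly all summits were seen in both replicates, a share that is partly fixed because the IDR set was derived from the files of both replicates. Of the 178 IDR peaks, 176, or 98.9% (95% exact interval 96.0 to 99.9), overlapped a peak of both full lists by at least 1 bp, against 97.4% of the 8396 others. The 2 exceptions, 2R:18335230 in sbb with 194.9 and 3R:9932820 in Glut4EF with 195.8, had no overlapping peak in replicate 5. The nearest replicate summit was a median of 17.5 bp away in replicate 5 and 9 bp away in replicate 7. If each replicate list was limited to its first 8574 peaks by value, 129, or 72.5%, were in both, against 75.6% of the others. By gene this share ran from 53.3% in Svil (8 of 15) and 60.9% in bun (14 of 23) to 83.3% in siz (15 of 18) and 87.0% in CG1677 (20 of 23).

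The rank of a summit differed widely between replicates in a minority of cases. Among the 176, 18, or 10.2%, ranked in the first 1000 of both replicates, against 8.39% of the other IDR peaks found in both. The ranks differed more than 3-fold for 19, or 10.8%, against 10.9% of the others. Of the 19, 12 ranked higher in replicate 7 and 7 in replicate 5, and klar held 5 and tara 4. In tara 3R:16247763 ranked 15074 in replicate 5 and 1834 in replicate 7, and 3R:16253326 ranked 2410 and 12639. In klar 3L:513997 ranked 20145 and 5361. With 1 library for each replicate, the spread between libraries at a summit cannot be told apart from the spread between embryo samples.

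**Figure D3:**
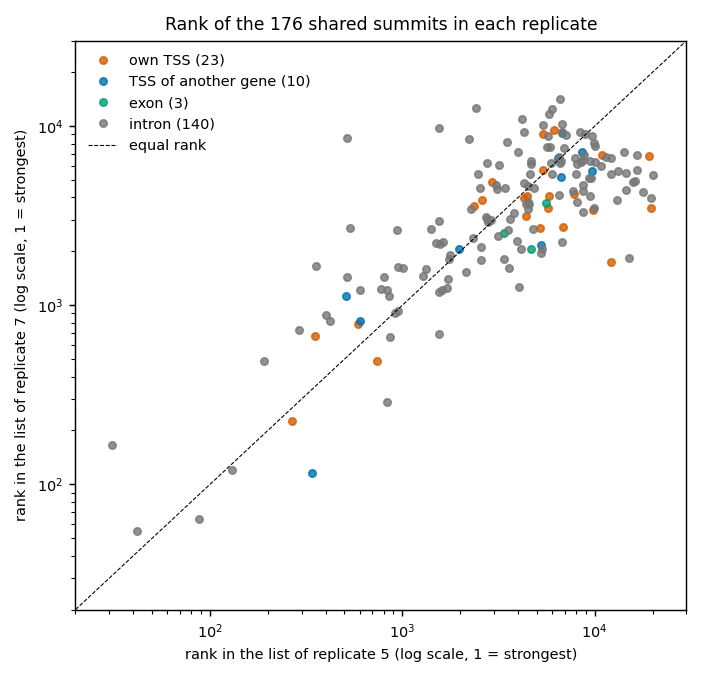
Points are the 176 summits with a peak in both replicates, at their rank in replicate 5 (x) and replicate 7 (y), on log scales where 1 is the strongest, coloured by placement. Points lie on both sides of the dashed line of equal rank, and 19 of them differ more than 3-fold in rank.

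The 9 genes were compared with protein-coding genes of similar length, from 0.8 times the length to the length divided by 0.8. The 9 themselves were left out of these comparisons. Each of the 9 held more summits than at least 95% of the genes compared, which follows from how they were picked. The values show how far apart they stand. The 322 genes of the length of tara had a median of 1 summit and at most 13, in CAP, against 18 in tara. The 298 of the length of siz had a median of 2 and at most 16, in ftz-f1, and the 119 of the length of sbb a median of 3 and at most 17, in Hr4, against 27 in sbb. No gene outside the list matched these 3 within that range of length, though tara and siz lie in each other's range with 18 each. For rdx 1 of 167 genes reached its 20 summits, shn with 28, and for bun 1 of 94 did, Eip75B with 33. For CG1677 1 of 58 did, for Glut4EF 2 of 61, and for klar 3 of 75 and Svil 3 of 60, each time with Eip75B highest. The median in each of these 6 comparisons was 3, and 21.3% to 31.1% of the genes in them held no summit. For Svil the share of genes with fewer summits was exactly 95%. Genes left out reached some of these counts too. In the ranges of rdx and bun, sbb held 27. In those of Glut4EF, klar and Svil, CG1677 held 23.

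The median gene of similar length had 2 TSSs in each comparison. Svil has 16, bun 7 and klar 5, and rdx and siz have 4 each, CG1677 has 3, and sbb, tara and Glut4EF have 2, as the median has. Of the genes with many TSSs bun held 23 summits and Svil and klar 15 each. Of those with 2 TSSs sbb held 27, Glut4EF 19 and tara 18. All 9 were picked for high counts, and whether the number of TSSs goes with the count was not tested. The 5 genes outside the list with most summits were Eip75B, an ecdysone-induced nuclear receptor gene, with 33 in 113.7 kb, shn, which acts in Dpp signalling, with 28 in 58.3 kb, kirre, of myoblast fusion, with 20 in 394.1 kb, CG46467 with its 19 shared summits, and Hr4, another nuclear receptor gene, with 17 in 66.0 kb. Per kb, shn at 0.480 lay between tara and siz, and Eip75B at 0.290 between rdx and bun. The 5 genes were picked by count and not by density, and 1 gene with 16 summits held 0.718 per kb, more than tara.

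**Figure D4:**
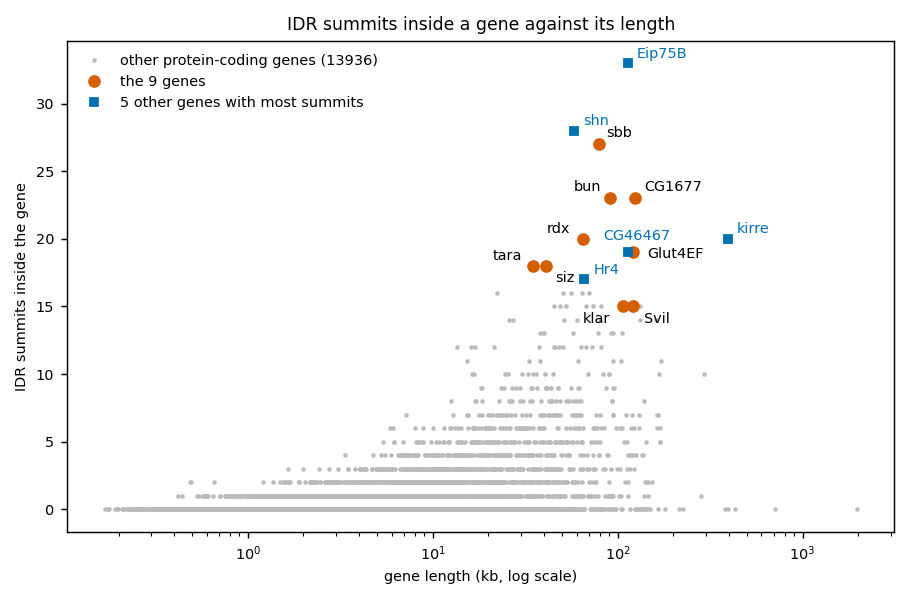
Each point is a protein-coding gene, at its length in kb (log scale) and the number of IDR summits inside it. The 9 genes (circles) and the 5 others with most summits (squares) stand above nearly all genes of their length, and tara and siz do so at the shortest length.

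At the summits the sequence was richer in G and C than beside them, and this held in these genes as outside. Windows reaching 100 bp to either side of the 178 summits had 43.9% GC, against 39.7% in 291 windows centred 600 bp to either side with no IDR peak and 41.6% over the 9 genes. Outside the genes the values were 43.7% at the 8396 other summits and 40.9% beside them. The sides of the summits in the 9 genes dropped to 36.9% about 475 bp before and 37.2% about 425 bp after the summit, lower than at other summits, whose lowest bin was 40.1%. By gene, the summit windows ran from 40.03% in Svil and 41.1% in bun to 47.3% in siz and 50.8% in tara. In sbb they had 42.0% against 41.4% beside them, the smallest step, and in siz 47.3% against 37.9%, the largest. The part of GC content in the calling of these peaks was not tested.

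**Figure D5:**
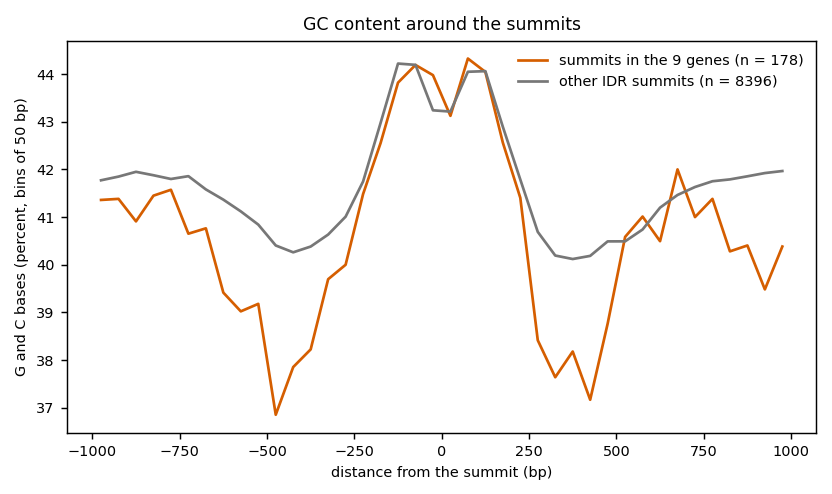
Lines give the percentage of G and C in bins of 50 bp by distance from the summit (bp), for the 178 summits in the 9 genes and the 8396 others. Both rise to about 44% within 125 bp of the summit, and the sides fall lower in the 9 genes.

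The short repeats GAGAG and CACACAC were more frequent at the summits and long A tracts less so. GAGAG (or CTCTC on the other strand) was in 56 of 178 summit windows, or 31.5% (95% exact interval 24.7 to 38.8), against 18.9% (14.6 to 23.9) of the windows beside them. At other IDR summits the shares were 32.4% and 22.1%. The difference in the 9 genes, 12.6 percentage points, was 3.06 in windows reaching 50 bp to either side. GAGAG was in 10 of 18 summit windows of siz, or 55.6%, and in 3 of 27 of sbb, or 11.1%, below the 17.4% beside the summits of that gene. The longer GAGAGAG was in 7 of 178 summit windows, or 3.93% (1.60 to 7.93), against 2.75% (1.19 to 5.34) beside them. Its share at other IDR summits was 6.98%. CACACAC (or GTGTGTG on the other strand) was in 31 summit windows, or 17.4% (12.2 to 23.8), against 7.90% beside them, and in 12.3% at other summits. In windows reaching 50 bp to either side the difference, 9.51 points, was 6.11. The motif was in 5 of 19 summit windows of Glut4EF against 3 of 34 beside them, in 5 of 23 of CG1677 against 6 of 26, and in 0 of 15 of klar against 2 of 24. For klar a rough upper limit, 3 divided by the number of windows and not an exact interval, is 20%. AAAAAAAA (or TTTTTTTT on the other strand) was in 12 summit windows, or 6.74%, against 19.6% beside them. This difference of -12.8 points was -7.31 in the narrower windows. Other IDR summits had nearly the same share, 6.86%, against 12.9% beside them.

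Among the 28 motifs and words searched, the palindrome TGACGTCA had a higher share at the summits than beside them, on few windows. TGACGTCA, the cyclic AMP response element bound by bZIP factors of the CREB and ATF kind, is its own reverse and was in 5 of 178 summit windows, or 2.81% (0.918 to 6.43), against 1 of 291 beside them, or 0.344% (0.0087 to 1.90), so the intervals overlap. At other IDR summits the share was 0.643%. TGANTCA, the AP-1 motif, also bound by bZIP factors, went the other way, in 6 of 178 summit windows, or 3.37%, against 6.19% beside them. The 5 windows are shown as 41 bp centred on the match in capitals, plus strand, 5′ to 3′, from RefSeq Release 6, since the letters around the palindrome differ in each.
rdx, 3R:14017038-14017078: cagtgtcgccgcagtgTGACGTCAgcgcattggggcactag
bun, 2L:12487406-12487446: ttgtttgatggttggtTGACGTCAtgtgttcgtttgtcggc
siz, 3L:21052277-21052317: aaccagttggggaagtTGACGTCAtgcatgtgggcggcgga
rdx, 3R:14003766-14003806: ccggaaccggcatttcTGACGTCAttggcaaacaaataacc
klar, 3L:441885-441925: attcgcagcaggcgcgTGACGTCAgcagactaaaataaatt
The matches lay within 73 bp of their summits, and those in klar and siz were nearest, at 10 and 23 bp. The peaks themselves were of moderate or low value, from 177.2 in klar to 430.3 in rdx. TATCGATA, the letters read by DREF, was in 0 of 178 summit windows, for which the exact interval reaches 2.05%. It was also in 0 of 291 windows beside them. At other summits it was in 1.93%, against 0.636% beside those. CACTGAGA, the 8-letter word ranked first at IDR summits outside these genes, was in 2 of 178, or 1.12%, against 2.32% there. A match of letters is a description and not a binding site.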

How the data were processed

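ChIP-seq with an antibody to GFP was made from 2 biological replicates of 1 group, each with 1 library, and nothing was compared between groups. Per the labels, chromatin was sonicated to 200 to 800 bp and the assembly was dm6. The authors deposited narrowPeak lists, each peak with a signal value and a −log10 q-value of their caller and the offset of its summit. The scale of the signal is not stated, so it only ranked peaks within a list, and the −log10 q-value was not used. For the aligner, the peak caller and the IDR cutoff, the labels and files name nothing (not given in the sources used here). Read depth is unknown. Full lists held 30000 peaks each, a shared number, so a missing weak peak need not mean missing signal.

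Summits were placed in the Ensembl release 115 annotation (arms 2L, 2R, 3L, 3R, 4 and X), strand ignored, with Python 3.11.15, pandas 2.3.3, numpy 2.4.6 and scipy 1.17.1; figures used matplotlib 3.10.9. A summit was inside a gene when it lay between its first and last base. Coordinates are 1-based. Exact (Clopper-Pearson) 95% intervals cover counting error only. The counting steps were tested on simulated data. Named genes are the 9 genes, genes with a TSS within 500 bp of one of their summits, and the 5 other genes with most summits; overlapping genes and the highest gene of each length class were named besides, after their values were seen. Motifs were searched on both strands. The 9 genes, the motifs and the settings were chosen with earlier results of these data known.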

Additional observations from a re-analysis of the deposited data

How the results depend on the processing

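Of 41 values from alternative settings for the main results, 32 stayed within 1.5 times a count within the exact interval of a share, or, for a motif difference, within 0.5 times the width of the exact interval of its share at the summits, and 9 moved; none changed direction. The count of 178 summits was 573 in the whole pooled list and 48 in the strongest 1 in 4 of the IDR peaks; from the strongest peaks of a single replicate it was 157 to 174. The share at own promoters, 12.9%, was 8.33% in the strongest 1 in 4 and 7.87% with a TSS distance of 200 bp, and 12.1% to 13.2% from a single replicate. The intron share, 79.8%, was 88.8% with 200 bp and 79.6% to 79.9% from a single replicate. The share of peaks in both replicates, 98.9%, was 93.3% when a replicate summit had to lie within 100 bp, and 72.5% among the strongest peaks of each. In windows reaching 50 bp to either side the GAGAG difference was 3.06 points that of AAAAAAAA -7.31 points and that of CACACAC 6.11 points. Of the 9 genes, 8 held more summits than 95% of genes of similar length from a single replicate, 9 with both, and 6 in the strongest 1 in 4 of the IDR peaks. For single genes 27 of 46 values kept within 1.5 times and 19 moved. Apart from CG1677 without its long transcript, all that moved came from the whole pooled list or the strongest 1 in 4. These lists differ in length from the IDR list, which changes a count by itself. Leaving out CG1677, its long transcript, Svil or siz was chosen after seeing the data. No paired analysis was possible because there is 1 group. With no read counts, the depth that limits weak peaks is unknown.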
